A study of Mus musculus with 25 samples.

Results

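Tumour cells sorted from peritoneal tumours of 4 mice were compared with 3 cultures of RasLOW cells, which are 7 of the 25 libraries of the series. BMEL cells are bipotential progenitors of mouse embryonic liver, derived as a clone from a C57BL/6 x C3H embryo, and RasLOW cells are BMEL cells transduced with a lentiviral vector that encodes human H-Ras G12V together with the fluorescent protein Venus or mCherry and sorted for weak fluorescence. The 3 RasLOW cultures were growing exponentially on collagen in medium with foetal calf serum, insulin, IGFII and EGF. The 4 tumour libraries came from athymic nude mice, which lack mature T cells, after BMEL cells carrying the same oncogene had been injected into the liver, and GFP-positive cells were sorted from the dissociated peritoneal growths. Stromal cells of the same 4 peritoneal tumours (the GFP-negative cells), tumour cells from the liver of the same mice and 3 cultures of RasHIGH cells (BMEL cells sorted for strong fluorescence) served as references. The labels do not say which Ras population was injected for these 4 tumours, nor the age of the mice or the time after injection. The paper describes the sequenced tumour cells as Venus-positive. For its paired liver and peritoneal tumours it names RasLOW cells with mCherry and RasHIGH cells with Venus. A difference in Ras level from the RasLOW cultures thus cannot be told apart from the change with growth in the peritoneum. All RasLOW cultures were read in lane 4 and none is described as sorted at harvest, whereas the tumour libraries were read in lanes 1, 2 and 3, so growth in the peritoneum, lane, dissociation and sorting cannot be told apart. The labels do not say whether the 3 cultures were grown separately, so p-values measure the spread between these libraries.

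Levels are given as CPM, a gene's counts scaled to a common library total, and 3 counts correspond to 0.0585 to 0.129 CPM in these 7 libraries, a limit that covers counting error only. Fold changes and adjusted p-values come from edgeR's quasi-likelihood test across all genes tested, in which libraries were scaled by TMM factors of 0.971 to 1.09. A gene was called when its adjusted p was under 0.05 and its log2 fold change exceeded 1 in either direction. Because a sort leaves some host RNA behind, a gene was marked as possible host RNA when its mean CPM in the 4 stroma libraries exceeded 2 times its mean in the 4 tumour cell libraries. In such bulk samples, fewer cells of a type and less RNA per cell cannot be told apart.

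Cells measure oxygen with prolyl hydroxylases of the Egln family, which use oxygen to tag the alpha subunits of hypoxia-inducible factor (Hif) for destruction. When oxygen runs short the tag is missing, and Hif binds a short core sequence near genes for glucose uptake, mitophagy, collagen hydroxylation and blood vessel growth. A shortage of amino acids instead acts through the kinase Gcn2 and the transcription factor Atf4, which with C/EBP partners binds a composite element near genes for amino acid synthesis and transport. Ras works upstream of Raf, Mek and Erk, whose activity is read from feedback genes such as Dusp and Spry family members and from immediate early genes.

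Stretches upstream of 5 oxygen-response genes are shown first because nearly all tested genes of that list rose. The sequences are RefSeq promoter entries on GRCm38.p6, each matched letter by letter to a single place in mm9, and capitals mark the Hif core ACGTG or its reverse complement CACGT, searched on both strands (the 2 overlap where CACGTG stands in the Bnip3 line).
Slc2a1, chr4:118781274-118781320, plus strand: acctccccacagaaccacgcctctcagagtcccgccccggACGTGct
Bnip3, chr7:146101253-146101337, minus strand: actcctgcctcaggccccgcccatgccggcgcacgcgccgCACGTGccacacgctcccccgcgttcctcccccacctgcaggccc
Egln1, chr8:127473178-127473262, minus strand: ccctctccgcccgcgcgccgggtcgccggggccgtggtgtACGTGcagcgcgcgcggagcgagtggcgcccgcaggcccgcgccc
Egln3, chr12:55305046-55305111, minus strand: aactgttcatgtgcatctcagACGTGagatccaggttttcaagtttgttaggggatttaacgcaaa
P4ha2, chr11:53914308-53914392, plus strand: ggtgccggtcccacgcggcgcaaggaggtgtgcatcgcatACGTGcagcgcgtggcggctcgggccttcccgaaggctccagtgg
In the 250 bases before the start, ACGTG was present in 12 of the 15 called oxygen-response genes with an entry (80%) and in 4998 of all 27025 genes of the table (18.5%). Over all members of the list with an entry, called or not, it was present in 12 of 19 (63.2%). In GENCODE vM1 on mm9, Slc2a1 spans chr4:118781316-118809935 on the plus strand, and the 5 last bases printed for it lie in its first exon. The P4ha2 stretch precedes a RefSeq start that lies inside the GENCODE vM1 span of that gene, chr11:53913597-53945167. The match describes these letters only, and the list was itself assembled from genes known to respond to oxygen.

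Upstream stretches of 3 genes of amino acid supply are shown for the opposite reason, since these fell. Capitals mark TGATGNAA, the core of the element bound by Atf4 and C/EBP,, or its reverse complement, again on both strands.
Chac1, chr2:119176745-119176832, plus strand: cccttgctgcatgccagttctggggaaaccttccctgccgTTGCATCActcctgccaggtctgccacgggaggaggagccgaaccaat
Slc7a11, chr3:50247536-50247622, minus strand: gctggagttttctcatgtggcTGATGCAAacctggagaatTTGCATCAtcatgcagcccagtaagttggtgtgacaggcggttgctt
Pycr1, chr11:120505118-120505205, minus strand: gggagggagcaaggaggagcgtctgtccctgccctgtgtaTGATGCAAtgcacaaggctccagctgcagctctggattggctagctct
Of the called genes of the amino acid list with an entry, 5 of 15 (33.3%) held this core in the 250 bases before the start, against 1056 of the 27025 genes (3.91%). Over all list members with an entry, called or not, the core was present in 7 of 23 (30.4%). This list was also assembled from genes of that response, so a share above the background followed from the choice. The match describes these letters only and does not bear on the fall.

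In all, 3240 of 12871 genes tested were called (25.2%), of which 1884 were higher (14.6%) and 1356 lower (10.5%) in peritoneal tumour cells. The groups did not overlap in 6738 genes (52.4%), and the median log2 fold change over all genes tested was -0.02. Among the 10792 genes without the host mark, 1164 were higher (10.8%) and 1032 lower (9.56%). The mark fell on 720 of the 1884 genes called higher (38.2%) and on 324 of the 1356 called lower (23.9%). Called genes with a rise above 5 on the log2 scale numbered 385, of which 291 (75.6%) carried the mark, which makes most of the largest folds those of genes more abundant in stroma. The plot of calls by gene list gives the direction taken by each of 32 lists. The shares called over all genes, 14.6% higher and 10.5% lower, stand beside each count of list members below.

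**Figure D1:**
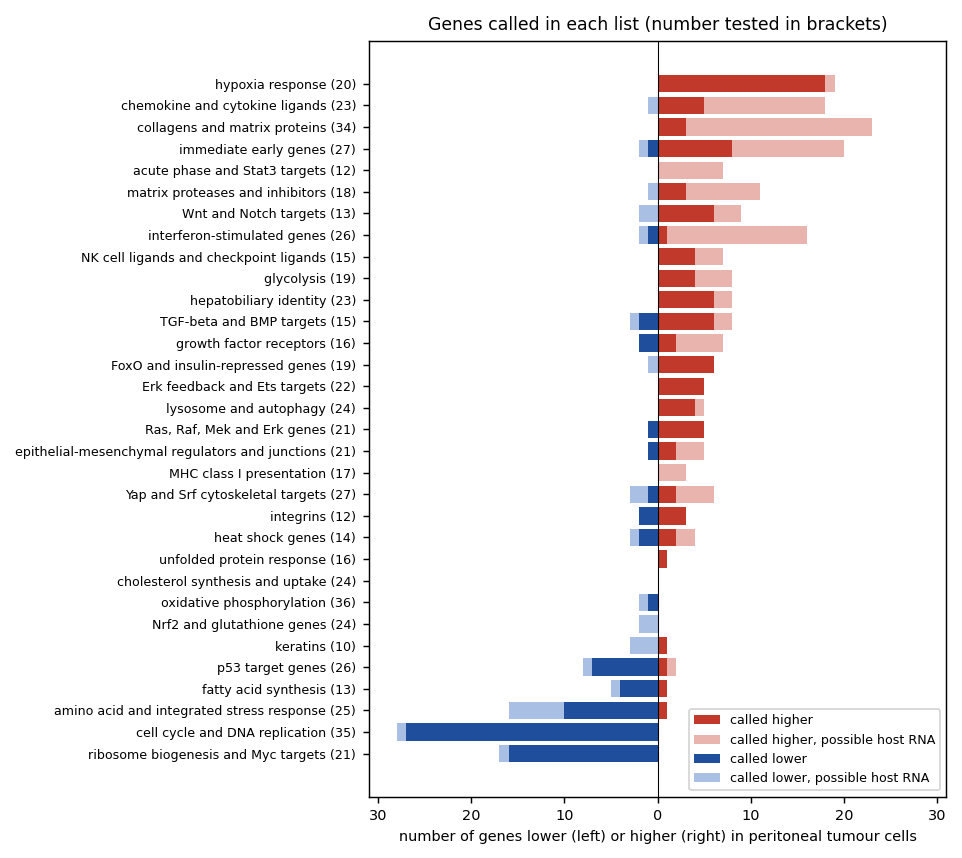
Number of genes called lower (bars to the left) and higher (bars to the right) in 4 peritoneal tumour cell libraries against 3 RasLOW cultures, for each gene list with the number tested in brackets; pale bars are genes marked as possible host RNA. Oxygen-response genes were called higher in 19 of 20, and amino acid, cell cycle and ribosome biogenesis genes were called mostly lower.

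Markers of host cells were low but present in the tumour cell libraries. The 11 fibroblast markers summed to 1580 CPM in mouse 1 and to 228 to 348 CPM in mice 2, 3 and 4, against 1.99 to 6.80 CPM in RasLOW and 51200 to 74300 CPM in stroma, and 6 of the 11 had no count in RasLOW. The sum in mouse 1 was thus 3.09% of the stroma of that mouse, and in the others 0.433% to 0.471%. The 9 leukocyte markers stood at 3.35% of the stroma in mouse 1 and 0.900% to 1.87% in the others, the 10 dendritic cell markers at 2.63% and 0.278% to 0.356%, and the 17 macrophage markers at 5.48% to 8.62% over all 4 mice. The macrophage sums were 832, 504, 529 and 474 CPM, of which Mrc1 held 364, 346, 361 and 322 CPM. Gata6, without the host mark, held 114, 82.3, 84.6 and 83.1 CPM. The RasLOW cultures also summed to 165 to 236 CPM for this list. Of the leukocyte sums of 135, 65, 33.1 and 37.5 CPM, Cd53 held 25.3, 55, 21 and 25.9 CPM. The part of host RNA in these sums was not tested. The library of mouse 1 had the highest share of stroma by these lists, so counts below that rest on it are given without it too. Endothelial markers summed to 61.1 to 251 CPM, or 10.2% to 46.0% of the stroma, but most of this was 1 gene: Cdh5, which encodes VE-cadherin, was at 112, 242, 50.5 and 170 CPM, whereas Pecam1 was at 19.7, 1.98, 2.63 and 2.45 CPM. In stroma Cdh5 averaged 123 CPM and Pecam1 148 CPM.

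The label of liver progenitors was checked against 12 markers. Krt8, Krt18 and Krt19, keratins of simple epithelium, and Hnf4a, a hepatic transcription factor, were expressed in both groups, with Hnf4a at 299, 287, 322 and 381 CPM in tumour cells and 334, 456 and 322 CPM in RasLOW. Epcam did not pass 0.0956 CPM in any tumour library and at 0 in RasLOW, and Alb did not pass 0.792 CPM in any of the 7 libraries, so these markers were all but absent from both groups. Msln, a mesothelial surface protein, was highest in culture, at 914, 2950 and 1450 CPM in RasLOW, against 414, 355, 470 and 485 CPM in tumour cells (log2 fold change -1.95, SE 0.32, adjusted p = 0.00215) and 38.6 CPM in stroma.

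**Figure D2:**
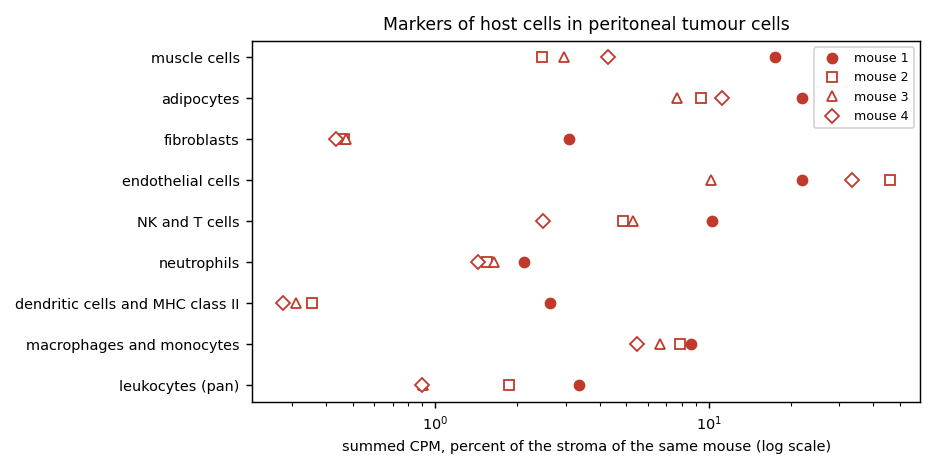
Summed CPM of host cell markers in the tumour cells of each mouse as a percentage of the stroma of the same peritoneal tumour, on a log axis; the filled circle is mouse 1 and open symbols are mice 2, 3 and 4. Mouse 1 lies to the right of the other mice for fibroblasts (3.09% against 0.433% to 0.471%) and for dendritic cell genes (2.63% against 0.278% to 0.356%).

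Oxygen-response genes rose almost without exception. Of 25 genes in the list, 20 passed the filter on low counts, and of these 19 were called higher and none lower, with a median log2 fold change of 2.18. Only Car9 among the 20 carried the host mark. Loxl2, a collagen crosslinking enzyme, was the exception with values of 403, 318, 288 and 314 CPM in tumour cells and 176, 194 and 352 CPM in RasLOW, which overlap. Ndrg1, a stress-responsive gene used as a readout of Hif, was at 60.2, 137 and 33.9 CPM in RasLOW and at 2380, 1530, 1330 and 1500 CPM in tumour cells. Every tumour library thus lay far above every culture, a 23.1-fold rise (log2 fold change 4.53, SE 0.50, adjusted p = 0.000374).

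Bnip3, a receptor for mitophagy, was at 27.2, 24.4 and 11.0 CPM in RasLOW and rose to 454, 333, 336 and 309 CPM (17.8-fold, log2 SE 0.35, adjusted p = 0.000127). Slc2a1, which encodes the glucose transporter Glut1, was at 121, 112 and 97.0 CPM in culture and at 574, 498, 532 and 429 CPM in tumour cells (4.78-fold, log2 SE 0.16, adjusted p = 7.07e-05). The spread within each group was small beside the distance between groups for both genes. Mxi1, an antagonist of Myc, rose from 30.3, 49.7 and 27.5 CPM to 243, 205, 188 and 204 CPM (6.14-fold, adjusted p = 9.83e-05). Pdk1, a kinase that inhibits pyruvate dehydrogenase, rose from 56.3, 49.0 and 28.6 CPM to 240, 204, 216 and 252 CPM (5.28-fold, adjusted p = 0.000264). For Mxi1 and Pdk1 the stroma means, 104 and 57.4 CPM, were below every tumour library.

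The oxygen sensors themselves belonged to the genes that rose. Egln3 was at 113, 95.4 and 119 CPM in RasLOW and at 507, 482, 403 and 417 CPM in tumour cells (4.27-fold, adjusted p = 8.48e-05), and Egln1 at 94.1, 75.3 and 93.7 CPM and at 260, 218, 218 and 226 CPM (log2 fold change 1.44, adjusted p = 0.000338). Both stood below these values in stroma, with means of 96.0 and 119 CPM. Vegfa, the main growth factor of blood vessels, rose from 73.6, 246 and 93.4 CPM to 868, 675, 474 and 781 CPM (5.39-fold, adjusted p = 0.00235), with culture 2 the highest of the cultures. P4ha2 and Plod2, which hydroxylate collagen, rose by log2 fold changes of 1.85 and 2.09 (adjusted p = 0.000157 and 0.000160). Car9, a carbonic anhydrase induced by low oxygen, was at 0.106, 0.735 and 0.343 CPM in culture and at 4.68, 4.81, 4.88 and 3.06 CPM in tumour cells, with a higher mean in stroma (11.3 CPM). The number of list members called higher was 19 to 21 when any library was left out and 20 when RasHIGH cultures replaced RasLOW.

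**Figure D3:**
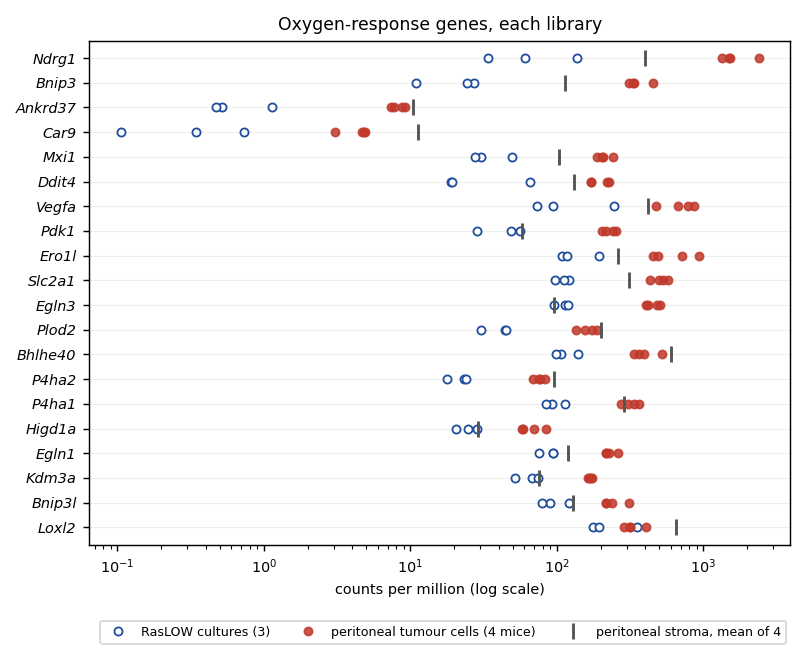
CPM on a log axis of the 20 oxygen-response genes tested, in 3 RasLOW cultures (open circles), 4 peritoneal tumour cell libraries (filled circles) and as the mean of 4 stroma libraries (vertical ticks), with genes ordered by fold change from bottom to top. Groups are apart in all genes but Loxl2, at the bottom, and Ndrg1, at the top, rises from 33.9 to 137 CPM to 1330 to 2380 CPM.

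Glycolysis genes moved less. Of 19 tested, 8 were called higher and none lower (median log2 fold change 0.84), against 14.6% and 10.5% of all genes. The host mark fell on 4 of the 8. Hk2 and Hk1, the hexokinases that trap glucose in the cell, were at 155, 159 and 135 CPM and 291, 330 and 231 CPM in RasLOW. They rose to 381, 356, 328 and 354 CPM (2.46-fold, adjusted p = 0.000164) and to 632, 605, 606 and 560 CPM (2.20-fold, adjusted p = 0.000568). Eno2, an enolase isoform, rose from 1.31, 8.30 and 1.63 CPM to 33.9, 57.3, 36.4 and 52.5 CPM (log2 fold change 3.67, adjusted p = 0.00224). Eno1, the main enolase, was at 646, 650, 695 and 745 CPM in tumour cells, within the cultures' range of 596 to 983 CPM. The enzymes of the lower pathway, Gapdh, Pgk1, Pkm and Ldha, had log2 fold changes of 0.54 to 0.83 with adjusted p-values of 0.0123 to 0.0488, below the fold threshold. Pfkp and Pfkfb3, the platelet phosphofructokinase and a regulator of that step, were called (log2 fold changes 2.50 and 1.5) but were more abundant in stroma (169 and 115 CPM). The count of 8 became 13 without RasLOW culture 1 and 5 against RasHIGH cultures.

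Genes of amino acid synthesis, amino acid transport and the integrated stress response fell together. In the list of 26 genes, 25 were tested, 16 were called lower and 1 higher, with a median log2 fold change of -1.69, and without host-marked genes 10 were lower and 1 higher of 17. Psat1, an enzyme of serine synthesis, was at 416, 435 and 619 CPM in RasLOW and at 42.7, 62.3, 58.1 and 51.4 CPM in tumour cells. Each tumour library was thus far below the lowest culture, an 8.83-fold fall (log2 SE 0.19, adjusted p = 5.05e-05). Asns, which makes asparagine, was at 133, 269 and 221 CPM in culture and at 17.8, 27.6, 19.7 and 12.5 CPM in tumour cells (10.2-fold lower, log2 SE 0.29, adjusted p = 0.000145). Mthfd2, of mitochondrial folate metabolism, fell from 100, 138 and 139 CPM to 6.69, 13.9, 11.0 and 6.30 CPM (12.7-fold, adjusted p = 9.57e-05). Its host mark came from a stroma mean of 20 CPM, itself below every culture.

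The serine pathway around Psat1 went the same way. Phgdh, its entry enzyme, fell from 695, 534 and 511 CPM to 174, 234, 253 and 310 CPM (log2 fold change -1.21, adjusted p = 0.00273), and Shmt2, which turns serine into glycine, from 306, 290 and 277 CPM to 71.6, 102, 107 and 80.7 CPM (-1.64, adjusted p = 0.000238). Aldh18a1, of proline synthesis, fell 4.78-fold from 126, 248 and 196 CPM to 32.0, 45.9, 35.8 and 38.2 CPM (adjusted p = 0.000167). Among the 3 genes whose upstream stretches are shown above, Chac1, which degrades glutathione, fell from 9.64, 31.8 and 37.7 CPM to 1.88, 4.52, 2.19 and 1.74 CPM (9.72-fold, adjusted p = 0.00145). Slc7a11, the cystine transporter, fell from 8.19, 57.7 and 17.4 CPM to 4.91, 1.84, 1.95 and 2 CPM (9.67-fold, adjusted p = 0.00435), although stroma had 98.7 CPM. Pycr1, of proline synthesis, had 7.16, 34.8 and 7.81 CPM in culture and 3.12, 4.81, 2.95 and 2.94 CPM in tumour cells (log2 fold change -2.17, adjusted p = 0.0105). Culture 2 was the highest culture for Slc7a11 and Pycr1, and for Trib3, an Atf4-induced pseudokinase, which stood at 12.5, 113 and 28.3 CPM against 7.87, 7.80, 5.29 and 5.70 CPM (log2 fold change -2.84, adjusted p = 0.00654).

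The mRNA of Atf4 itself was at 322, 271, 289 and 281 CPM in tumour cells and 316, 380 and 403 CPM in RasLOW (log2 fold change -0.28, adjusted p = 0.0937). Ddit3, a partner of Atf4 known as Chop, had 36.4, 31.1, 28.9 and 32.6 CPM in tumour cells, inside the cultures' range of 7.48 to 48.1 CPM. Vldlr, a lipoprotein receptor, was the only member called higher, from 23, 108 and 46.1 CPM to 170, 147, 133 and 153 CPM (log2 fold change 1.44, adjusted p = 0.0207), and this call was lost without RasLOW culture 3 (1.31, adjusted p = 0.0802). The number called lower was 15 to 16 when any library was left out, and 18 against RasHIGH cultures, in which Psat1 and Asns averaged 512 and 280 CPM. In the unfolded protein response list, which shares the Ddit3 arm, 1 of 16 genes was called, against 25.2% of all genes. It was Dnajb9, a chaperone of the endoplasmic reticulum, which rose from 14.6, 27.0 and 12.2 CPM to 76.7, 57.8, 45.6 and 61.3 CPM (log2 fold change 1.82, adjusted p = 0.00158).

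Genes of ribosome biogenesis, many of them targets of Myc, were lower in tumour cells. All 21 members were tested, 17 were called lower and none higher, and the median log2 fold change was -1.31. Nop2, a methyltransferase of ribosomal RNA, fell from 282, 222 and 258 CPM to 44.2, 58.9, 65.3 and 56.2 CPM (4.39-fold, adjusted p = 0.000102). Myc fell from 338, 386 and 317 CPM to 128, 149, 173 and 119 CPM (2.34-fold, adjusted p = 0.000570). Both groups were narrow for Nop2 and Myc, and no tumour library reached a culture. Rrs1, a ribosome assembly factor, and Polr1a, the largest subunit of RNA polymerase I, fell by 1.94 and 1.33 on the log2 scale (adjusted p = 0.00122 for each). Cad, which starts pyrimidine synthesis, fell from 412, 202 and 478 CPM to 48.9, 78.3, 102 and 74.5 CPM (4.68-fold, adjusted p = 0.00160). The number called lower was 13 to 20 over the fits that left out a library, and 10 against RasHIGH cultures.

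Cell cycle and DNA replication genes had the same sign but depended on the cultures compared. Of 35 tested, 28 were called lower and none higher (median log2 fold change -1.48). Ccne1, which encodes cyclin E1, was at 36.6, 12.6 and 44.0 CPM in RasLOW and at 5.26, 6.36, 6.38 and 6.98 CPM in tumour cells (4.88-fold lower, adjusted p = 0.00251). Cdt1, which licenses replication origins, fell from 82.7, 42.4 and 84.4 CPM to 25.9, 28.2, 32.6 and 30.0 CPM (log2 fold change -1.22, adjusted p = 0.00562). In both genes culture 2 was the lowest culture and the nearest to the tumour cells. For Mki67, the proliferation marker Ki-67, culture 2 reached the tumour range, with 272, 106 and 638 CPM in RasLOW and 109, 105, 117 and 112 CPM in tumour cells (log2 fold change -1.58, adjusted p = 0.0281), and the call was lost without culture 3 (-0.76, adjusted p = 0.131), without any of the 4 tumour libraries (adjusted p = 0.058 to 0.0676) and with the number as a block (0.0924). The 28 genes called lower became 14 without RasLOW culture 1, 13 without culture 3, 31 without culture 2 and 20 without the tumour of mouse 1. Against RasHIGH cultures the count was 7, and with the mouse or culture number as a block it was 10.

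**Figure D4:**
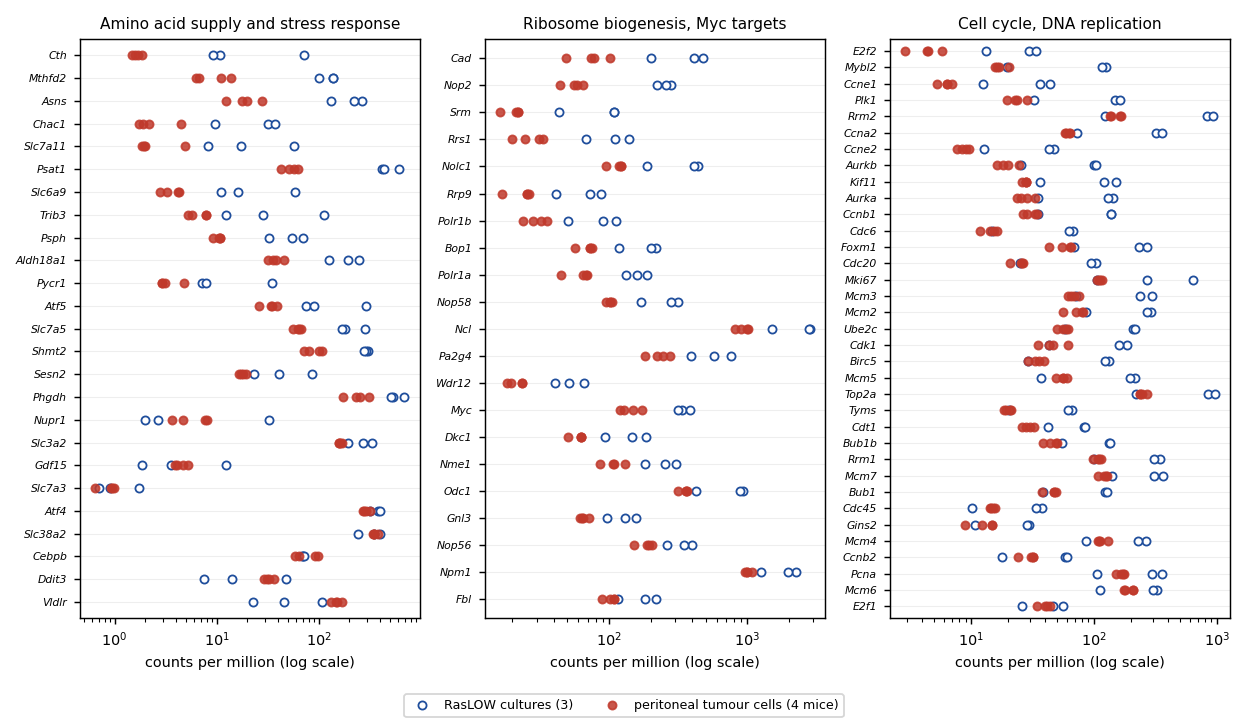
CPM on log axes of the tested genes of amino acid supply (left), ribosome biogenesis (middle) and cell cycle (right) in 3 RasLOW cultures (open circles) and 4 peritoneal tumour cell libraries (filled circles), with genes ordered by fold change. In the cell cycle panel 1 of the 3 cultures lies beside the tumour cells for many genes, as for Mki67 at 106 CPM against 105 to 117 CPM.

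Neither Hras nor Nras of the mouse passed the test. Hras, for which the part of reads from the human transgene was not tested, was at 101, 52.7 and 91.5 CPM in RasLOW and at 50.3, 53.4, 57.3 and 44.8 CPM in tumour cells (log2 fold change -0.63, SE 0.24, adjusted p = 0.0567). Nras had 208, 215 and 180 CPM in RasLOW and 231, 218, 219 and 221 CPM in tumour cells (log2 fold change 0.20, adjusted p = 0.161). Ksr1, a scaffold that holds Raf, Mek and Erk together, was the member that moved most, from 6.2, 4.96 and 3.95 CPM to 43.8, 48.1, 37.7 and 51 CPM (9.23-fold, adjusted p = 5.73e-05), with a stroma mean of 66.2 CPM. Mapk3, which encodes Erk1, rose from 110, 130 and 97.3 CPM to 240, 246, 226 and 241 CPM (log2 fold change 1.14, adjusted p = 0.000257). Rasa1, a Ras GTPase-activating protein, rose by 1.13 (adjusted p = 0.000322), while Rras2, a Ras relative, fell from 93.6, 74.6 and 110 CPM to 30.0, 29.5, 28.9 and 22.5 CPM (-1.70, adjusted p = 0.000347). In all, 5 of 21 genes of the list were called higher and 1 lower, where 14.6% and 10.5% of all genes were called higher and lower. Against RasHIGH cultures 2 were called higher and none lower, and the calls of Mapk3, Rasa1 and Rras2 were among those lost.

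Feedback genes of Erk had 13 positive and 9 negative fold changes. Of the 22 tested, 5 were called higher and none lower (median log2 fold change 0.58), against 14.6% and 10.5% of all genes. Dusp6, a phosphatase of Erk, was at 439, 622 and 493 CPM in RasLOW and 469, 405, 572 and 378 CPM in tumour cells (log2 fold change -0.12, adjusted p = 0.591). Etv5, an Ets factor, also overlapped, with 27.0 to 37.6 CPM in tumour cells and 35.0 to 45.8 CPM in culture. Values for Dusp4 (log2 fold change 0.87), Etv4 (0.93) and Spry2 (0.64) were positive and that for Phlda1 negative (-0.50), with adjusted p-values of 0.0124 to 0.0238 and folds below the threshold. Dusp5, a nuclear Erk phosphatase, rose from 130, 83.0 and 113 CPM to 482, 377, 437 and 509 CPM (4.27-fold, adjusted p = 0.000297), and Spry4, an inhibitor of receptor signalling to Ras, from 21.9, 35.8 and 20.5 CPM to 74.6, 60.5, 67.7 and 68.0 CPM (log2 fold change 1.44, adjusted p = 0.000759). Lif, a cytokine of the interleukin-6 family, rose from 26.0, 36.4 and 26.4 CPM to 218, 168, 207 and 169 CPM (6.72-fold, adjusted p = 5.05e-05).

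Immediate early genes were higher in tumour cells, and most of them higher still in stroma. Of 27 tested, 20 were called higher and 2 lower (median log2 fold change 1.80), but 17 of the 27 carried the host mark, and of the other 10 genes 8 were called higher and 1 lower. Fosb rose from 8.79, 17.3 and 4.76 CPM to 1130, 635, 910 and 982 CPM (93.6-fold, adjusted p = 8.06e-05), with a stroma mean of 2580 CPM. Jun rose from 50.7, 45.5 and 39.0 CPM to 653, 334, 442 and 373 CPM (10.4-fold, adjusted p = 0.000118), with 962 CPM in stroma. Tumour and stroma cells of each mouse both went through dissociation and sorting, and the part of this handling in the rise was not tested. Ier3, without the mark, rose from 123, 128 and 122 CPM to 531, 334, 395 and 412 CPM (log2 fold change 1.80, adjusted p = 0.000238). The 2 genes that fell were Myc, given above, and Ccn1, a matricellular protein, from 134, 266 and 366 CPM to 89.0, 86.5, 92.4 and 53 CPM (-1.61, adjusted p = 0.00459).

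Secreted factors of the TGF-beta superfamily, its inhibitors and its target genes changed in both directions. Tgfb1, a ligand, was at 54.6, 54.0 and 35.4 CPM in RasLOW and at 473, 462, 429 and 611 CPM in tumour cells (10.7-fold, log2 SE 0.22, adjusted p = 5.29e-05), with 499 CPM in stroma. Ltbp1, which stores latent TGF-beta in the matrix, rose from 38.6, 45.1 and 22 CPM to 201, 247, 266 and 279 CPM (7.34-fold, adjusted p = 0.000149), above the stroma mean of 90.5 CPM. Grem1, a secreted BMP antagonist, was near the counting limit in culture, at 0.213, 0.294 and 0.0429 CPM, and at 61.6, 99.9, 49.9 and 125 CPM in tumour cells (log2 fold change 8.82, SE 0.55, adjusted p = 5.29e-05). Stroma had 6.14 CPM of Grem1, below every tumour library.

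Among the targets, Smad7, the inhibitory Smad of TGF-beta receptors, rose from 67.6, 78.1 and 65.9 CPM to 265, 197, 182 and 173 CPM (log2 fold change 1.59, adjusted p = 0.000356). Smad6, its BMP counterpart, moved the other way, from 21.8, 25.2 and 36.4 CPM to 5.19, 4.61, 5.05 and 3.70 CPM (5.76-fold lower, adjusted p = 0.000157). Id1 and Id3, targets of BMP signalling, fell too, Id1 from 92.6, 62.6 and 242 CPM to 26.1, 21.6, 19 and 31.2 CPM (log2 fold change -2.40, adjusted p = 0.00324) and Id3 from 10.3, 7.86 and 25.6 CPM to 3.6, 1.53, 1.48 and 1.70 CPM (-2.77, adjusted p = 0.00324). In total 8 of 15 list members were called higher and 3 lower (median log2 fold change 1.18), against 14.6% and 10.5% of all genes. Without host-marked genes 6 of 12 were higher and 2 lower, against 10.8% and 9.56%.

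In the Wnt and Notch list 9 of 13 genes tested were called higher and 2 lower, against 14.6% and 10.5% of all genes. The host mark fell on 3 of the 9 and both of the 2. When any library was left out, 6 to 10 were called higher, fewest without mouse 4, and 1 to 2 lower. Dll4, a Notch ligand known from sprouting vessels, was at 0.248, 0.0367 and 0.0858 CPM in RasLOW and at 128, 121, 152 and 153 CPM in tumour cells (log2 fold change 10.10, SE 0.38, adjusted p = 1.5e-05). This was well above its stroma mean of 24.9 CPM, and liver tumour cells of the same mice averaged 191 CPM. Dll1 rose from 1.35, 1.18 and 0.515 CPM to 25.9, 10.5, 16.8 and 32.6 CPM (21.7-fold, adjusted p = 0.000474) and Jag1 from 245, 289 and 180 CPM to 649, 815, 995 and 617 CPM (log2 fold change 1.75, adjusted p = 0.000703). The Notch targets Nrarp and Hes1 rose by 1.64 and 1.75 (adjusted p = 0.000855 and 0.00160), Hes1 from 53.1, 107 and 65.9 CPM to 331, 190, 206 and 240 CPM. Notch1 itself fell from 19.6, 83.1 and 47.3 CPM to 9.75, 8.34, 7.44 and 5.17 CPM (-2.61, adjusted p = 0.00177), although stroma held 137 CPM. The ligand Jag2 was the other gene called lower, from 11.0, 7.02 and 6.05 CPM to 4.94, 2.88, 2.63 and 3.40 CPM (-1.17, adjusted p = 0.0197), with 35.0 CPM in stroma, and this call was lost without culture 1 (-0.82, adjusted p = 0.0884) or any of mice 2, 3 and 4 (adjusted p = 0.0501 to 0.0576).

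Among other cytokines and receptors, Il11, an interleukin-6 family cytokine, rose from 0.284, 0.514 and 0.558 CPM to 21, 37.3, 16.2 and 32.3 CPM (61.3-fold, adjusted p = 6.50e-05). Csf1, the growth factor of macrophages, fell from 35.0, 55.7 and 72.8 CPM to 16.1, 10.1, 8.59 and 9.62 CPM (log2 fold change -2.24, adjusted p = 0.000768), with 304 CPM in stroma. Mst1r, the receptor Ron, rose from 17.6, 20.3 and 15.8 CPM to 141, 136, 130 and 112 CPM (7.52-fold, SE on the log2 scale 0.14, adjusted p = 2.17e-05). Flt1, a Vegf receptor, rose from 6.24, 5.00 and 4.59 CPM to 136, 145, 93.4 and 223 CPM (29.1-fold, adjusted p = 6.50e-05), above a stroma mean of 77.3 CPM. Kdr, the other main Vegf receptor of endothelium, was at 6.6, 1.27, 0.703 and 0.604 CPM in tumour cells and 49.6 CPM in stroma, with no count in RasLOW. Of 23 chemokines and cytokines tested, 18 were called higher and 1 lower, but 17 carried the host mark, and without mouse 1 the number called higher was 14. Il1b, an inflammatory cytokine, had no count in RasLOW and 38.0, 2.49, 4.14 and 3.47 CPM in tumour cells, highest in mouse 1, against 2200 CPM in stroma.

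Adhesion genes moved in both directions. Itga5, the fibronectin receptor subunit alpha-5, rose from 52.4, 61.5 and 55.6 CPM to 322, 479, 532 and 354 CPM (7.76-fold, adjusted p = 6.50e-05), and Itgb1, its partner, from 654, 538 and 633 CPM to 1280, 1310, 1290 and 1270 CPM (log2 fold change 1.13, adjusted p = 0.000583). Itgb6, of an epithelial integrin, fell from 10.1, 16.2 and 14.1 CPM to 3.25, 1.47, 1.72 and 1.85 CPM (-2.64, adjusted p = 0.000577). Fn1, fibronectin itself, rose from 37.5, 87.2 and 74.9 CPM to 1930, 2650, 1560 and 2600 CPM (log2 fold change 5.10, adjusted p = 6.50e-05), but carried the mark because stroma had 14700 CPM. The Fn1 levels were 15.3%, 16.7%, 10.5% and 17.0% of those in the stroma of the same mice. Fibroblast markers summed to 0.433% to 3.09% of that stroma, macrophage markers to 5.48% to 8.62% and endothelial markers to 10.2% to 46.0%. The part of host RNA in the Fn1 values was not tested. Of 34 collagens and matrix proteins tested, 23 were called higher, 20 of them host-marked. Col3a1, a collagen of fibroblasts, was at 664, 94.9, 117 and 76.5 CPM with no count in RasLOW and 27000 CPM in stroma, at least 1850-fold higher when 3 counts per culture stand for 0.

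Among 27 targets tested of Yap, which reads cell density and tension, and of Srf, 6 were called higher, against 14.6% over all genes. Another 3 (11.1%) were called lower, near the 10.5% over all genes. The host mark fell on 4 of the 6 and 2 of the 3. Amotl2, a junction protein with the host mark, fell from 364, 465 and 577 CPM to 26.8, 45.5, 31.4 and 29.4 CPM (13.6-fold, log2 SE 0.22, adjusted p = 5.05e-05), and Ajuba, an adaptor of junctions, from 235, 219 and 232 CPM to 44.1, 55.6, 65.0 and 42.9 CPM (log2 fold change -2.09, adjusted p = 0.000110). Zyx and Tpm4, of the actin cytoskeleton, rose by 1.23 and 1.47 (adjusted p = 0.000628 and 0.00190). Plat, the tissue plasminogen activator, rose from 44.7, 49.9 and 42.3 CPM to 262, 318, 250 and 308 CPM (6.47-fold, adjusted p = 2.17e-05), and Mmp10, a matrix protease, from 0.709, 0.661 and 0.215 CPM to 8.41, 19.1, 18.9 and 54.2 CPM (48.0-fold, adjusted p = 0.000978).

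Genes of hepatobiliary identity were called higher or not called. Of 23 tested, 8 were called higher and none lower (median log2 fold change 0.65), against 14.6% and 10.5% of all genes. The number called higher was 6 to 10 when any library was left out. It was 6 against RasHIGH cultures and 5 against RasLOW and RasHIGH cultures together. Krt19, a keratin of biliary cells, was at 2770, 2740 and 2320 CPM in RasLOW and 2870, 1950, 2260 and 2690 CPM in tumour cells (log2 fold change -0.04, adjusted p = 0.856). Sox9, a factor of biliary cells and progenitors, rose from 96.6, 104 and 56.6 CPM to 506, 378, 419 and 523 CPM (5.54-fold, adjusted p = 0.000235), and Krt23, a keratin, from 0.815, 1.21 and 0.215 CPM to 37.1, 21.2, 14.8 and 76.7 CPM (51-fold, adjusted p = 0.000916). Afp, the foetal liver protein alpha-fetoprotein, rose from 4.29, 1.65 and 2.19 CPM to 9.62, 8.14, 10.6 and 15.3 CPM (log2 fold change 2.03, adjusted p = 0.00483). Stroma had little of Sox9 (42.0 CPM), Krt23 (3.21 CPM) and Afp (0.593 CPM). Vim, the intermediate filament of mesenchymal cells, rose from 4130, 1510 and 3110 CPM to 6350, 5780, 5790 and 5730 CPM (1.05, adjusted p = 0.0290), a call lost when any tumour library, culture 2 or culture 3 was left out (log2 fold changes 0.71 to 1.08, adjusted p = 0.00477 to 0.0730). Snai1, a repressor of epithelial genes, was at 7.17, 8.14, 5.91 and 6.79 CPM against 0.425, 0.367 and 0.172 CPM in culture (4.46, adjusted p = 0.000138), with 50.4 CPM in stroma.

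Among 26 targets of p53 tested, 8 were called lower and 2 higher, and the 2 became 4 without culture 2 and 1 without mouse 1 or culture 3. Over all genes, 10.5% were called lower and 14.6% higher. Perp, an apoptosis and desmosome gene, fell from 254, 293 and 204 CPM to 65.4, 59.2, 62.4 and 56.7 CPM (3.95-fold, adjusted p = 6.29e-05). Ccng1, which encodes cyclin G1, fell from 518, 799 and 497 CPM to 196, 214, 192 and 225 CPM (log2 fold change -1.48, adjusted p = 0.000313), and Aen, a nuclease of apoptosis, by 1.42 (adjusted p = 0.000357). Genes held down by insulin and induced by FoxO factors went up in 6 of 19 and down in 1. Igfbp3, which binds insulin-like growth factors, rose from 567, 551 and 419 CPM to 2100, 1800, 2020 and 2170 CPM (4.09-fold, adjusted p = 0.000101), and Ccng2, cyclin G2, from 43.8, 76.2 and 32.5 CPM to 270, 215, 229 and 232 CPM (log2 fold change 2.29, adjusted p = 0.000431). The FoxO count became 3 without mouse 1, culture 1 or culture 3, and 9 without culture 2.

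Lipid genes divided by pathway. The counts of this paragraph stand beside 10.5% called lower and 14.6% called higher over all genes. Fatty acid synthesis had 5 of 13 genes called lower and 1 higher, among them Acaca, acetyl-CoA carboxylase, from 138, 130 and 168 CPM to 50.9, 65.0, 75.0 and 59.6 CPM (log2 fold change -1.17, adjusted p = 0.00108) and Fads2, a desaturase, by -1.37 (adjusted p = 0.00229). None of the 24 cholesterol synthesis and uptake genes was called, and their median log2 fold change was -0.27. In oxidative phosphorylation 2 of 36 genes were called lower (median -0.36), and the 2 became 1 without mouse 1. In the Nrf2 list 2 of 24 were called lower, both host-marked, and the count was 4 without mouse 1 or any 1 of the cultures and 6 against RasHIGH. Npc1, which exports cholesterol from lysosomes, rose from 63.0, 88.9 and 61.5 CPM to 296, 317, 317 and 262 CPM (log2 fold change 2.13, adjusted p = 6.50e-05), while the lysosome list as a whole had 5 of 24 called higher, 9 without culture 2 and none against RasHIGH cultures. Hspd1, a mitochondrial chaperone, fell from 1370, 868 and 1420 CPM to 423, 467, 415 and 488 CPM (-1.40, adjusted p = 0.00117).

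Interferon-stimulated genes called higher nearly all carried the host mark. Of 26 tested, 16 were called higher and 2 lower, against 14.6% and 10.5% of all genes. The mark fell on 15 of the 16, and without mouse 1 the 16 became 10. The 2 lower became 1 without culture 2, mouse 3 or mouse 4. Oasl1, a member without the mark, rose from 1.10, 0.918 and 0.472 CPM to 28.0, 18.9, 13.8 and 12.1 CPM (22.4-fold, adjusted p = 0.000235), and Irgm1, an interferon-induced GTPase, fell from 42.5, 156 and 51.5 CPM to 15.9, 19.5, 13.4 and 15.9 CPM (log2 fold change -2.28, adjusted p = 0.00250). In the presentation of antigen by MHC class I, 3 of 17 genes were called higher, all host-marked, near the 14.6% over all genes. The count was 2 without mouse 1 and 5 without culture 2 or mouse 3. Pvr, a ligand of receptors on natural killer cells, rose from 29.6, 41.4 and 42.3 CPM to 137, 114, 130 and 124 CPM (3.49-fold, adjusted p = 0.000115). Vtcn1, the checkpoint ligand B7-H4, had no count in RasLOW and 1.82, 5.15, 2.75 and 8.08 CPM in tumour cells, at least 34.6-fold higher when 3 counts per culture stand for 0. Ceacam1, an adhesion molecule that restrains natural killer cells, overlapped between groups at 1.88, 0.367 and 0.386 CPM and 5.26, 3.34, 0.917 and 4.60 CPM (log2 fold change 2, adjusted p = 0.0679). Ceacam1 was called with DESeq2 (adjusted p = 0.0196), with edgeR's exact test (0.0362), when number entered as a block (0.0396), and without culture 1 (log2 fold change 3.31, adjusted p = 0.0172) or mouse 3 (2.33, adjusted p = 0.0352).

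The largest changes outside host-marked genes were switches between near absence and clear expression. Siglec15, a sialic acid receptor, was at 0.284, 0.110 and 0 CPM in RasLOW and at 76.0, 96.3, 110 and 87.6 CPM in tumour cells (671-fold, adjusted p = 2.61e-05). Gc, the vitamin D binding protein made by liver, rose from 0.567, 0.331 and 0 CPM to 138, 197, 284 and 180 CPM (653-fold, adjusted p = 5.73e-05). Each was far below these values in stroma, at 5.14 and 8.43 CPM. Pthlh, the parathyroid hormone-related peptide, rose from 0.142, 0 and 0 CPM to 11.6, 33.9, 8.02 and 57.9 CPM, a wider spread than for the others. Ifitm1, an interferon-induced membrane protein, split the mice, with 8.29 and 8.27 CPM in mice 1 and 3 and 63.3 and 71.2 CPM in mice 2 and 4, against 2 counts in all RasLOW cultures. Its counts were 1310 times higher in tumour cells after scaling to library size (95% counting interval 363 to 10800). B3galt2, Gm14207, Agr2 and Fam167a had no count in RasLOW and were at least 32.4, 29.7, 26.0 and 20 times higher, taking 3 counts per culture for 0. Gm14207 (chr2:119146923-119151930, minus strand) overlaps the start of Dll4 (chr2:119151520-119161698, plus strand). The strand use of the counting is not given, and whether the 2 genes share reads was not tested.

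The rule for the largest falls left out host-marked genes, which were 26 of the 39 called genes that fell by over 5 on the log2 scale (66.7%), so low stroma levels follow from the choice. Wnt7a, a Wnt ligand, fell from 68.2, 74.2 and 45.4 CPM to 0.892, 1.22, 1.37 and 3.32 CPM (36.1-fold, adjusted p = 0.000127), with 0.0899 CPM in stroma. Ccdc92, a coiled-coil protein, fell from 25.2, 23.1 and 38.4 CPM to 1.12, 0.537, 0.605 and 0.528 CPM (40-fold, adjusted p = 5.46e-05). Fgfbp1, which releases fibroblast growth factors from matrix, fell from 14.8, 8.26 and 8.54 CPM to 0.351, 0.0848, 0.0390 and 0 CPM (86.1-fold, adjusted p = 0.000705). Tff1, a trefoil peptide of mucosa, fell from 1.45, 7.75 and 1.46 CPM to 0.151 CPM in mouse 4 and 0 in the other mice. Psca and Cst13 had no count in any tumour library and were at least 34.6 and 16.4 times lower, taking 3 counts per library for 0. The cystatin genes Cstdc2 and Cst9, which like Cst13 belong to a family of near relatives whose reads may be shared, had 340 and 342 counts in the 3 cultures and 1 count each in the 4 tumour libraries, and C9, a complement component, had 381 and 3.

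**Figure D5:**
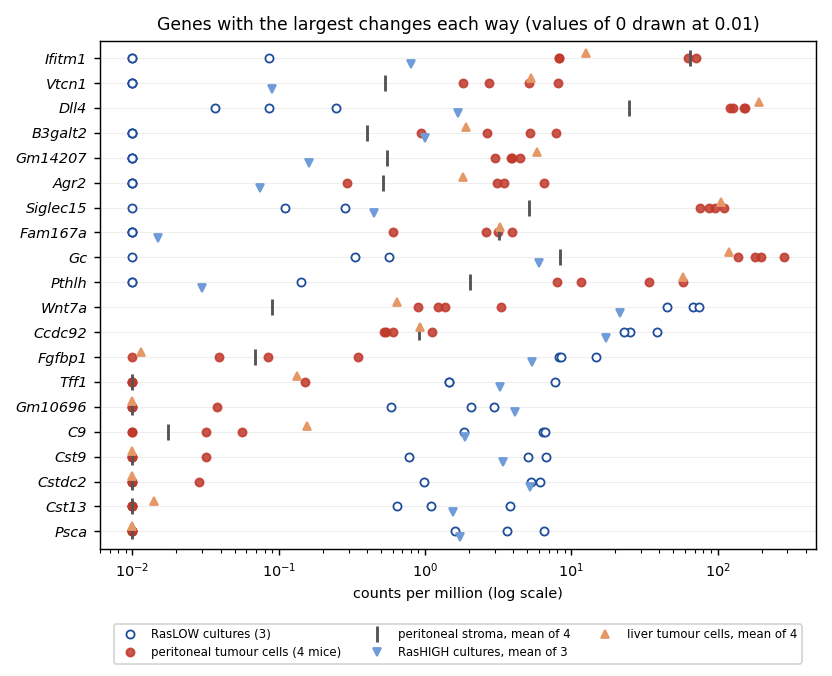
CPM on a log axis of the 10 genes that rose most (upper rows) and the 10 that fell most (lower rows) among called genes without the host mark, in 3 RasLOW cultures (open circles), 4 peritoneal tumour cell libraries (filled circles), and as means of RasHIGH cultures (triangles down), liver tumour cells (triangles up) and peritoneal stroma (ticks). Dll4, Siglec15 and Gc do not pass 0.567 CPM in any RasLOW culture and reach at least 76.0 CPM in every peritoneal tumour library, and values of 0 are drawn at 0.01.

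Since the labels do not give the injected population, each comparison was repeated against the 3 RasHIGH cultures. In the paper's paired tumours, Venus marked RasHIGH cells. Against RasHIGH, 2283 of 12791 genes tested were called, and against RasLOW 3240 of 12871. Of 166 genes followed across settings that could be fitted, 32 lost their call, 1 gained it (Loxl2) and 5 changed sign. Of the 5, 3 had been called against RasLOW, namely Fgfr3, a receptor of fibroblast growth factors (log2 fold change -1.66 against RasLOW and 0.86 against RasHIGH), Timp3, an inhibitor of matrix proteases (-3.15 and 1.29), and Csn3, a casein gene (3.27 and -0.24). Ceacam1 (2 and -1.52) and Selp (1.38 and -0.45) were called in neither by the main test. The study had chosen Csn3, Ceacam1, Selp and Tmem252 on these libraries as higher in RasHIGH than in RasLOW cultures, so their shifts between baselines are a description. Among genes described above, Hk1, Vldlr, Polr1a, Ccne1, Mki67, Spry4, Ccn1, Dll1, Zyx, Mmp10, Acaca, Npc1, Msln, Itgb6 and B3galt2 were called against RasLOW and not against RasHIGH. The calls of Ndrg1, Slc2a1, Bnip3, Psat1, Asns, Nop2, Grem1, Dll4, Mst1r, Itga5 and Amotl2 held against either culture.

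The peritoneal tumour cells were finally set against liver tumour cells of the same 4 mice, a comparison that uses no culture and asks where the site of growth matters. Of 13074 genes tested, 150 were called (1.15%), 100 higher in the peritoneum and 50 higher in the liver. With mouse as a block, 50 were called, 29 and 21. Without the liver tumour of mouse 2 the count was 23, and without the peritoneal tumour of mouse 1 it was 278. None of the 22 oxygen-response genes, 25 amino acid genes or 21 ribosome biogenesis genes tested between sites was called, a count near that background. Below the fold threshold, Plod2 and P4ha2 were lower in the peritoneum (log2 fold changes -0.87 and -0.81, adjusted p = 0.016 and 0.0199, and 0.0606 for each with mouse as a block), and the values were -0.60 for Slc2a1, -0.56 for Mxi1 and -0.45 for Egln3 (adjusted p = 0.0884 to 0.0926). Of 188 genes taken by the naming rules and tested here, 12 were called. Of the 12, 8 were higher in the peritoneum, all of them host-marked, such as Col3a1 with 664, 94.9, 117 and 76.5 CPM in the peritoneum and 10.4, 14.2, 13.6 and 10.9 CPM in the liver (log2 fold change 4.24, adjusted p = 0.0186). With mouse as a block none of these 8 calls held (for Col3a1 log2 fold change 3.53, adjusted p = 0.0554).

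The other 4 genes were lower in peritoneal than in liver tumour cells, with or without the block. For Csn3, Tmem252 and Ceacam1, and for Selp given last, the site values are a description too, since the same choice took genes higher in liver than in peritoneal tumours. Csn3, the casein kappa gene, was at 8.95, 13.3, 4.45 and 6.00 CPM in the peritoneum and at 63.0, 44.5, 72.2 and 57.9 CPM in the liver. Tmem252, a transmembrane protein, was at 8.44, 6.11, 9.25 and 6.27 CPM against 22.2, 14.7, 17.6 and 14.9 CPM. Ceacam1, which carried the host mark, was at 5.26, 3.34, 0.917 and 4.60 CPM against 13.9, 10.4, 8.72 and 18.8 CPM. Fgb, a fibrinogen chain of hepatocytes, was at 0 to 0.137 CPM against 2.06 to 8.93 CPM (-5.52, adjusted p = 0.00676), and Alb, albumin, averaged 14.9 CPM in the liver tumour cells, so the part of host hepatocyte RNA in the liver value was not tested. Selp, which encodes P-selectin, had 49.0, 30.2, 20.5 and 72.1 CPM in peritoneal tumour cells and a mean of 91.8 CPM in liver tumour cells. Against RasLOW it overlapped (log2 fold change 1.38, adjusted p = 0.0719). Selp was called there with DESeq2 (adjusted p = 0.0156), with edgeR's exact test (0.0333), with all 25 libraries in 1 fit (0.00897) and without mouse 3.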

How the data were processed

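RNA of sorted tumour and stromal cells and of cultures was sequenced on a HiSeq 2500 after poly(A)-directed library preparation. The authors aligned reads with TopHat2 to mm9 and deposited 1 table of raw counts per gene. The submitters' processing notes also name FastQC, Bowtie 0.12.2, mm8 and mm10, and the counting tool, its use of strand and the annotation are not given in the sources used here. Library totals were 23308427 to 28205198 counts in RasLOW and 26496363 to 51241336 in peritoneal tumour cells, and counting error sets the precision of low values.

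The table holds 24984 genes, of which 12871 passed filterByExpr (minimum count 10). The 7 libraries were fitted with edgeR 4.0.16 in R 4.3.3 (TMM, glmQLFit, glmQLFTest, Benjamini-Hochberg over all genes tested), with called meaning an adjusted p under 0.05 and an absolute log2 fold change above 1. Liver and peritoneal tumour cells were fitted apart in the same way. No set test was run. In bulk libraries CPM levels depend on transcript length, so levels were compared within genes only. Ratios of genes with 1 to 3 counts in a group carry 95% counting intervals. DESeq2 1.42.0 and other alternatives are given in the closing section. On simulated counts for 12716 genes, 181 of 200 genes changed by 2 on the log2 scale were recovered (90.5%), with 6 false calls. The changed genes were drawn from the better expressed ones, with either sign at random. Host RNA, lane and sorting were not simulated, and far fewer genes changed than the 25.2% called here. These rates therefore describe the simulated setting only.

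The gene lists, the part of the series described and the naming rules were chosen with earlier results of these data known. The rules took, in each direction, the 10 called genes of greatest fold that had at least 100 counts, no overlap and no host mark, up to 4 called members of each list in its main direction and 2 in the other by smallest p, the 3 most abundant members of each host marker list, and Hras, Nras, Dusp4, Dusp6, Etv4, Etv5, Spry2, Phlda1, Ceacam1, Csn3, Selp and Tmem252, and some items are not reported here. Other genes named, such as Ndrg1, Vegfa, Pdk1, Eno2, Phgdh, Chac1, Cad, Mki67, Id1, Kdr and Il1b, were chosen after their values were seen. Gene spans came from GENCODE vM1, which matched 162 of 167 symbols.

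Replicate numbers did not pair mice with cultures (correlations of deviations -0.07, -0.03 and 0.12). Liver and peritoneal tumours share mice by their labels, with correlations of deviations of -0.18, 0.06, -0.08 and 0.02 for mice 1 to 4, and that fit was also run with mouse as a block. No library pair was identical, and replicate correlations were 0.976 to 0.993 in tumour cells and 0.961 to 0.987 in RasLOW.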

Additional observations from a re-analysis of the deposited data

Results flagged for a closer look

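In 18 of 158 named genes with enough counts, 1 of the 4 peritoneal tumour libraries stood apart from the others by Dixon's criterion for 4 values, which chance meets in about 1 of 20 groups, and in 11 of the 18 the library of mouse 1 was the highest. That library held Col3a1 at 664 CPM, Col1a1 at 460 CPM, Pecam1 at 19.7 CPM, Ptprc at 12.5 CPM, Laptm5 at 31.7 CPM and H19 at 6.25 CPM, each several times the other mice. It was also the highest for Timp3 (23.5 CPM), Pfkfb3 (31.8 CPM), Slc7a11 (4.91 CPM), Id3 (3.6 CPM) and Vim (6350 CPM), and the lowest for Polr1a (44.7 CPM). Stroma exceeded tumour cells in the collagens, leukocyte genes, Pecam1, H19, Timp3, Pfkfb3, Slc7a11 and Id3, and the part of host RNA in these values was not tested. Mouse 2 was highest for Chac1 (4.52 CPM), Pycr1 (4.81 CPM) and Cd53 (55 CPM). Mouse 4 was lowest for Car9 (3.06 CPM), Rras2 (22.5 CPM) and Ccn1 (53 CPM).

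Between the sites of growth, 18 of the 167 genes followed across settings differed at an adjusted p under 0.05 in edgeR's quasi-likelihood test, whatever the size of the fold. Fgb, given above, was outside that set (log2 fold change -5.52, adjusted p = 0.00676, and 0.0159 with mouse as a block). Tumours of both sites came from the same mice, and with mouse as a block 6 of the 18 kept an adjusted p under 0.05, namely Csn3, Ceacam1, Tmem252, Eno2, Plat and Msln. The study had picked Csn3, Ceacam1 and Tmem252 on these libraries for a higher level in liver tumours, so their values are a description. Lower in peritoneal than in liver tumour cells on the log2 scale were Csn3 (-2.92), Ceacam1 (-1.93), Tmem252 (-1.25), Eno2 (-0.92), Plod2 (-0.87), P4ha2 (-0.81), Vldlr (-0.70), Plat (-0.57), Igfbp3 (-0.48) and Rras2 (-0.44, adjusted p = 0.0477). Higher were Col3a1 (4.24, adjusted p = 0.0186), Col1a1 (3.07), Clec2d (1.02), Msln (0.75), Irgm1 (0.63), Hnf4a (0.51), Pfkm (0.44) and Ccng1 (0.42, adjusted p = 0.0479).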

How the results depend on the processing

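The count of 3240 called genes was 3233 with RLE factors, 3206 with DESeq2, 3356 with edgeR's exact test, 3671 without a filter on low counts, 2468 at a minimum of 2 CPM, 3437 with unadjusted p and 4451 with all 25 libraries in 1 fit. With no fold threshold 6210 were called, 3046 higher and 3164 lower, 5010 of them without the host mark. Leaving out possible host genes before the fit gave 1228 higher and 174 list members in place of 1884 and 304. Against RasHIGH cultures 752 genes were lower and 1445 were called without the host mark, and the log2 fold changes of Fgfr3, Timp3 and Csn3 became 0.86, 1.29 and -0.24. With the replicate block 2748 genes were called, 1716 higher and 1032 lower, although the numbers pair nothing here. Leaving out 1 library gave 2672 to 4071 called, 1566 to 2465 higher, 1106 to 1606 lower, 1777 to 2864 without the host mark and 266 to 336 list members. Without mouse 1 and culture 2 together, an alternative chosen after seeing the data, 3941 were called. Of 150 named genes called, 112 held in every planned setting. Between sites, 4 of the 12 named calls held with mouse as a block, and leaving out 1 library gave 3 to 15. The cause of these shifts was not tested. A gene under 3 counts in a library (0.0585 to 0.129 CPM) cannot be told from an absent one.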
